A study of Mus musculus with 12 samples.

Results

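Abdominal fat of obese, diabetic mice was compared between animals that had received shRNA adenovirus against both LCN13 and TSC22D4 and animals that had received the TSC22D4 virus without the LCN13 virus. The comparison used the arrays labelled Lipocalin13 + TSC22D4 shRNA (replicates 13, 14 and 16) and TSC22D4 shRNA (replicates 10, 11 and 12), which are 6 of the 12 arrays of the series. All animals, labelled BKS.Cg-Dock7m +/+ Leprdb/J, carry a defective leptin receptor, were 12 weeks old and were killed 1 week after the injection. The combined group received 2e9 plaque-forming units of TSC22D4 shRNA virus and 2e9 of LCN13 shRNA virus. The TSC22D4 group received 2e9 of TSC22D4 shRNA virus and 2e9 of control shRNA virus. The dose of TSC22D4 virus and the total dose were therefore equal on both sides, and the LCN13 virus stood in the place of control virus, so a gain of one and a loss of the other cannot be told apart. The remaining groups were LCN13 shRNA (2e9 with 2e9 of control virus) and control shRNA (4e9 of control virus), with 3 arrays each. Arrays were run for 3 of the 7 animals in each group, picked as representative and not at random.

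Lipocalin 13 is a small secreted carrier protein known mainly as a product of the liver, where it has been tied to lower glucose output and better insulin sensitivity. TSC22D4 is a leucine zipper protein of the TSC22 family that regulates transcription, and in liver it is known to hold down the expression of Lcn13. White fat takes part in the same circuit of hormones: insulin drives its uptake of glucose and its synthesis and storage of triglycerides, and fasting turns these off and releases fatty acids.

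Values are log2 levels of 1 probe set per gene, and 23185 named genes were tested with limma, which pools the spread of all 4 groups. The levels ran from 5.62 to 14.38, and a difference of 1 is a doubling. Within the groups, the SD of the differences between pairs of arrays was smallest, at 0.124, for LCN13 replicates 5 and 6, against 0.149 for the next pair. These 2 arrays differed by more than 1 in 7 genes, against 61 in the next pair. They also enter the pooled spread. The present comparison and the tests that use the LCN13 group were therefore repeated with these 2 arrays averaged as 1 sample. Whether the 2 arrays share RNA or an animal is not known. TSC22D4 replicate 11 had high values of 4 genes known from the epididymis, the duct beside the abdominal fat pad of males. Lcn8 was at 10.87, Lcn9 at 9.96, Defb20 at 10.37 and Gpx5 at 11.41, against 5.96, 5.84, 5.88 and 5.79 in replicate 10. These genes were chosen after their values were seen. The list of epididymis and testis markers had a mean of 0.16 in TSC22D4 replicate 11 and also in LCN13 replicate 8. In the combined replicate 13, Gpx5 (9.12) and Defb20 (7.81) were raised to a lesser degree. Albumin was also high there (Alb 11.46, against 8.30 and 8.31 in replicates 14 and 16). High Alb was not particular to that array, as LCN13 replicates 5, 6 and 8 stood at 11.12, 11.07 and 9.91. In TSC22D4 replicate 10 the seminal vesicle gene Svs5 stood at 10.24, against 5.76 to 5.90 in the other 5 arrays compared.

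The genes that the viruses target were examined first, and no difference in either was detectable. Tsc22d4 stood at 7.74, 7.72 and 7.56 in the TSC22D4 arrays and at 7.59, 7.64 and 7.59 in the combined arrays. Its log2 change was -0.07 (SE 0.0808, adjusted p = 0.922), and the 3 control arrays at 7.60, 7.57 and 7.88 spanned the same range. In TSC22D4 shRNA against control, Tsc22d4 had a change of -0.0074 (SE 0.0808, adjusted p = 0.989 in limma). A loss of Tsc22d4 RNA with its own shRNA was therefore not seen in these arrays. Lcn13, listed under its current symbol Obp2a, stood at 5.76, 5.79 and 5.73 in the TSC22D4 arrays and at 5.71, 5.73 and 5.73 in the combined arrays, a change of -0.04 (SE 0.019, adjusted p = 0.767). These values lie at the lower end of the scale, where a probe set cannot show whether RNA was lost, so the arrays do not check the LCN13 knockdown. The labels do not say which tissues the virus reached. The other family members Tsc22d1, Tsc22d2 and Tsc22d3 had changes between -0.16 and -0.03, none of which passed.

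The defining genes of fat were abundant in all arrays and alike in both groups. Adiponectin (Adipoq) had means of 12.30 and 12.33 in the TSC22D4 and combined groups, a change of 0.03 (SE 0.0732). The lipid droplet coat protein Plin1 (12.68 and 12.70), the fatty acid binding protein Fabp4 (14.05 in both groups), the adipocyte master regulator Pparg (12.45 and 12.40) and leptin (Lep, 13.97 and 13.98) were also within 0.05 of each other. Cfd, the fat-secreted complement factor D, was not analysed here.

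Over all genes, no change with LCN13 shRNA added to TSC22D4 shRNA passed the test. Of 23185 genes, 0 passed limma at an adjusted p under 0.05 (0%), and the smallest adjusted p was 0.366, which 54 genes shared. At an unadjusted p under 0.05 there were 1602 genes (6.91%), of which 828 were higher (3.57%) and 774 lower (3.34%) in the combined group. The ranges of the 2 groups did not overlap for 3368 genes (14.5%), 1800 of them higher (7.76%) and 1568 lower (6.76%). The median change over all genes was 0.00358. The median 95% interval reached 0.113 to either side of the estimate, and for 99% of genes it lay within a change of 1 in either direction. For 94.8% of genes it lay within 0.5. These shares include dim genes, as the median level was 6.31 on a scale that starts at 5.62. For dim genes a narrow interval bounds the change in signal and not that in RNA. The shares were not taken for bright genes alone. Leaving out 1 array let a few genes pass. Without TSC22D4 replicate 11, the immunoglobulin gene Igkv5-43 passed lower (-1.91, adjusted p = 0.00865). Without the combined replicate 16, 4 genes passed: the secreted protease Adamts1 (-0.91, adjusted p = 0.0294), Fam110c (-0.51, adjusted p = 0.0473), the ubiquitin-conjugating enzyme gene Ube2q2 (0.475, adjusted p = 0.0363) and the endocytosis gene Fcho2 (0.244, adjusted p = 0.0473).

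**Figure D1:**
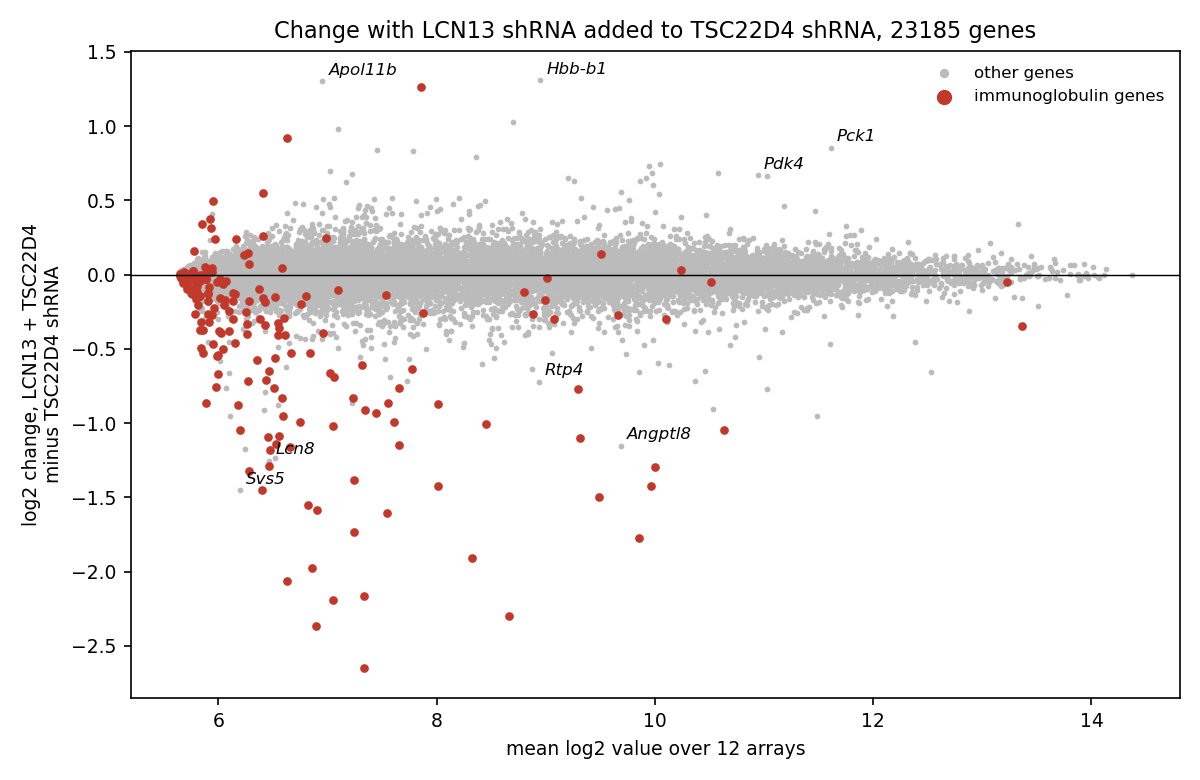
Log2 change in the combined group against the TSC22D4 group (vertical axis) against the mean log2 level over the 12 arrays (horizontal axis), 1 point per gene for 23185 genes, with immunoglobulin genes in red. Most points lie close to 0, and 32 of the 37 genes lower by more than 1 are immunoglobulin genes.

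The changes of greatest size were mostly in immunoglobulin genes. Beyond a change of 1 lay 41 genes, 37 lower and 4 higher. Of the lower ones, 32 code for immunoglobulin chains, and the other 5 were the glucose- and lipid-regulated hormone gene Angptl8 and 4 genes high in a single TSC22D4 array (Svs5 in replicate 10; Lcn8, Lcn9 and Ly6g5b in replicate 11). The 4 higher genes, named after their values were seen, were Hbb-b1 (1.31), which codes for a beta globin, the apolipoprotein L gene Apol11b (1.31), the immunoglobulin gene Ighv1-15 (1.27) and the ribonuclease gene Rnase2a (1.03). Apol11b stood at 6.95, 6.88 and 6.62 in the TSC22D4 arrays and at 8.64, 7.66 and 8.06 in the combined arrays (SE 0.532, adjusted p = 0.683). Its groups did not overlap, while control replicate 1 reached 7.76 and LCN13 replicate 8 reached 7.20.

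The 12 genes with the smallest unadjusted p among those higher in the combined group without overlap had small changes, from 0.09 to 0.34, each with an adjusted p of 0.366. Gabpa, a transcription factor of nuclear genes for mitochondria, stood at 9.01, 9.00 and 9.06 with TSC22D4 shRNA and at 9.20, 9.23 and 9.21 with both, a change of 0.19 (SE 0.0272). The combined arrays lay within 0.03 of each other and above every other array of the series. Setd6, a lysine methyltransferase gene, showed the greatest difference of the 12: 7.38, 7.43 and 7.27 against 7.78, 7.61 and 7.70, a change of 0.34 (SE 0.0573). Cmtm4, a membrane protein gene, had a change of 0.22 (SE 0.0365), from a mean of 7.56 to 7.77. For Setd6 and Cmtm4 the TSC22D4 group was itself below the control (adjusted p = 0.0126 and 0.0141), whose means were 7.74 and 7.80. That comparison shares the TSC22D4 arrays with the present one, so the 2 are not independent. Others of the 12 serve protein handling and RNA processing: Dnajc10 (0.22), a disulfide reductase of the endoplasmic reticulum, Cul4a (0.20), the scaffold of a ubiquitin ligase, the splicing factor gene Prpf6 (0.16) and the RNA-binding protein gene Taf15 (0.21). The remainder were Tmem260 (0.15), Fcho2 (0.20), the phosphatase subunit gene Ppp2r5e (0.23), the collagen gene Col8a2 (0.12) and Dlk2 (0.09), a relative of the preadipocyte factor Dlk1.

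Among the 12 lower genes chosen in the same way, changes ran from -1.98 to -0.16, again each with an adjusted p of 0.366. Szrd1 had the smallest unadjusted p of all genes, 3.77e-05, with values of 9.63, 9.54 and 9.54 against 9.24, 9.28 and 9.32 and a change of -0.29 (SE 0.0401). Rab11b, a small GTPase of recycling endosomes, stood at 8.36, 8.46 and 8.28 against 8.07, 8.05 and 8.12, a change of -0.28 (SE 0.0443). All 3 combined arrays lay below every other array of the series for both genes. Tmem97, a cholesterol-regulated receptor gene, had a change of -0.38 (SE 0.0692), from 9.85 to 9.46, and its control mean was 9.39. Kptn, which codes for a subunit of a complex that restrains mTORC1, had a change of -0.21, from 7.35 to 7.14, with a control mean of 7.10. The remainder were the immunoglobulin genes Igkv4-70 (-1.98) and Igkv4-73 (-1.38), Rtp4 (-0.72), Fam110c (-0.43), the mitochondrial gene Dnajc30 (-0.42), the rhomboid family gene Rhbdl3 (-0.31), the translation regulator gene Cpeb2 (-0.28) and the mitosis gene Bora (-0.16). In TSC22D4 shRNA against control, Tmem97, Kptn, Igkv4-70, Igkv4-73, Rhbdl3 and Bora passed higher (limma, adjusted p from 0.00526 to 0.0473), and Rtp4 passed lower. That comparison shares the TSC22D4 arrays with the present one and is not independent of it.

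**Figure D2:**
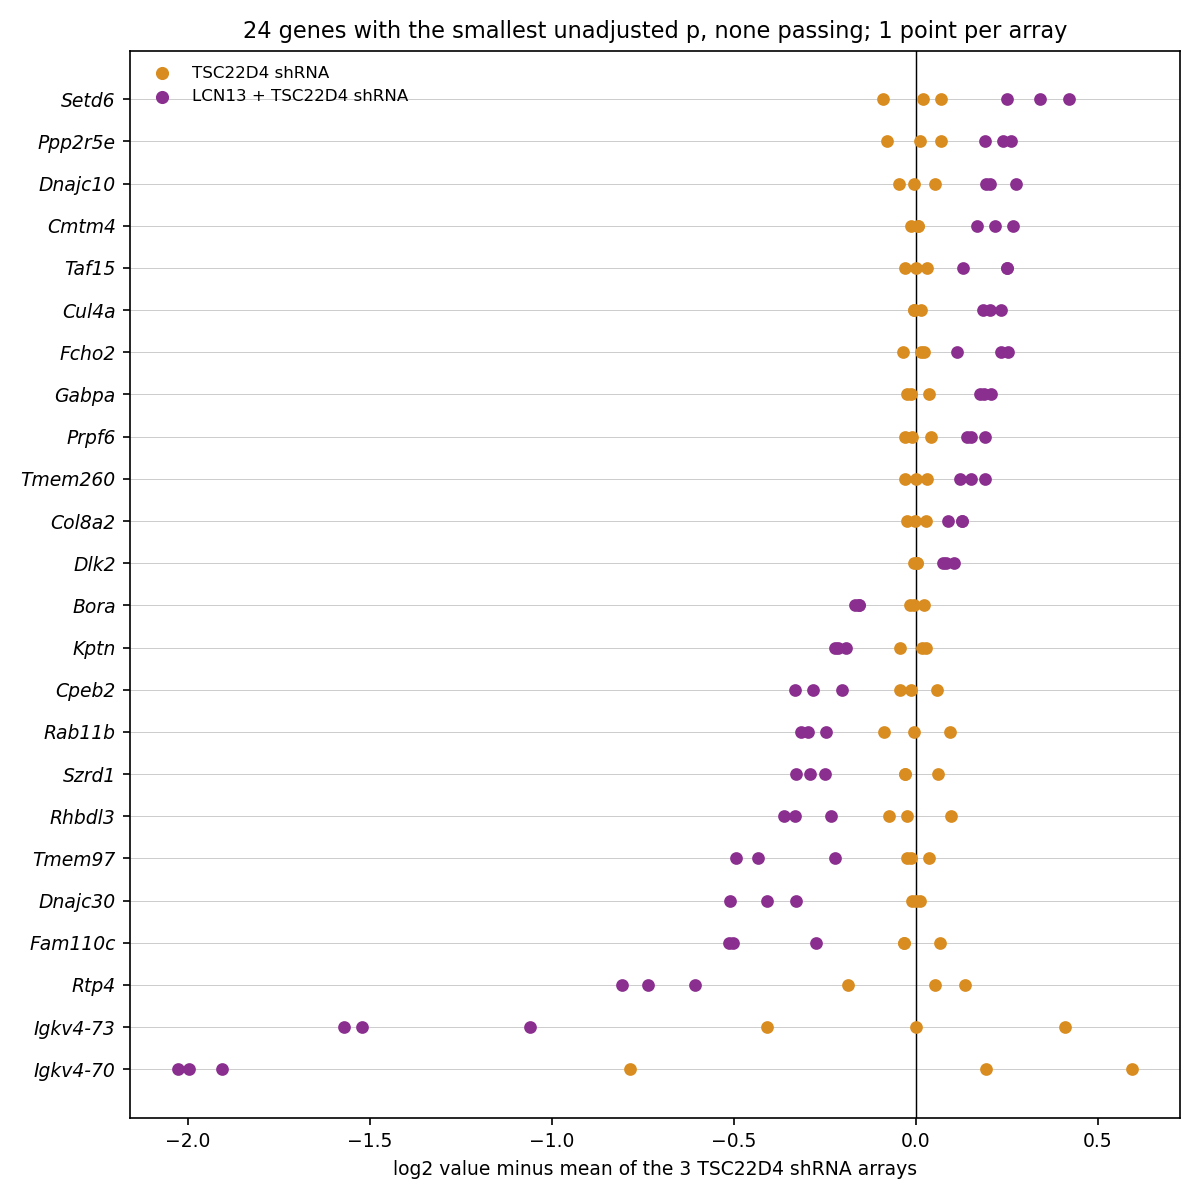
Log2 level of each of the 6 arrays minus the mean of the 3 TSC22D4 arrays (horizontal axis) for the 24 genes named by rank, 12 higher and 12 lower, none of which passed. Each point is 1 array (orange, TSC22D4 shRNA; purple, LCN13 + TSC22D4 shRNA), and the groups do not overlap because genes were picked on that condition.

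Interferon-stimulated genes code for antiviral proteins and are switched on by type I interferon. They were mostly lower in the combined group, by amounts that did not pass. The list was chosen with earlier results of these data known, so its shares here and below are description only. Of 34 measured members of the list, 32 had a change below 0 (46.1% of all genes did), 11 were lower at an unadjusted p under 0.05 (3.34% of all genes) and 19 were lower without overlap (6.76%). None passed, and the median change was -0.196, or between -0.229 and -0.149 with 1 array left out. Rtp4, an interferon-induced chaperone gene, stood at 8.61, 8.37 and 8.69 with TSC22D4 shRNA and at 7.75, 7.82 and 7.95 with both, a change of -0.72 (SE 0.102, adjusted p = 0.366). Irf7, the transcription factor that amplifies interferon production, stood at 10.08, 9.73 and 9.95 against 9.43, 9.25 and 9.15, a change of -0.65 (SE 0.128, adjusted p = 0.366). For both genes every combined array lay below every array of the other 3 groups. Oas2, a sensor of double-stranded RNA, had a change of -0.61 (SE 0.157), from 9.87 to 9.26, and Usp18, which restrains interferon receptor signalling, by -0.53 (SE 0.152), from 8.41 to 7.89. Near the other end of the list, Ifit2, which binds viral RNA, had a change of 0.00098 (SE 0.0932), with means of 7.31 in both groups.

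Against control, the same genes had far larger changes with LCN13 shRNA when no TSC22D4 virus had been given. In LCN13 shRNA against control, 31 of the 34 members passed lower (1.04% of all genes did), with a median change of -2.19, and in TSC22D4 shRNA against control 32 passed lower (0.88% of all genes), with a median of -2.00. With LCN13 replicates 5 and 6 averaged, 30 members passed lower in LCN13 shRNA against control (0.703% of all genes), with a median of -2.22. Averaged over the list, the deviation from the 12-array mean was 1.41, 1.82 and 1.43 in the control arrays. It was -0.42, -0.56 and -0.33 in the TSC22D4 arrays and -0.68, -0.62 and -0.71 in the combined arrays. The LCN13 arrays, at -0.40, -0.43 and -0.52, were not below the combined arrays. Oas1g stood at 9.91 to 10.53 in control arrays, at 6.32 to 6.48 with LCN13 shRNA, at 6.38 to 6.86 with TSC22D4 shRNA and at 6.31 to 6.50 with both. The levels of Oas1g in the shRNA groups are near the lower end of the arrays, where differences are compressed. The same holds for Ifi213, another member of the list, at 6.08 to 6.33 in the shRNA groups. TSC22D4 shRNA against control shares arrays with both other comparisons, and each of the 3 shRNA groups received less control virus than the controls did.

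The test of the difference, the LCN13 effect with TSC22D4 shRNA minus that without, was passed by 92 genes (0.397%), 85 above 0 (0.367%) and 7 below (0.0302%). Of the 92, 25 were in the interferon list, which is a selection, so the others are not thereby outside the interferon response. In LCN13 shRNA against control, 84 of the 92 also passed lower (1.04% of all genes did). That comparison is part of the difference tested, so the 2 are not independent. Oas1g differed by 3.46 between the 2 settings (adjusted p = 0.000409), Ifi213 by 3.21, Usp18 by 2.37 (adjusted p = 0.00184), Ifit2 by 2.25 and Irf7 by 1.78 (adjusted p = 0.00319). The count was 70 with LCN13 replicates 5 and 6 averaged, 25 of them in the interferon list, and the values of these 5 genes were then 3.49, 3.18, 2.40, 2.28 and 1.82 (adjusted p at most 0.00914). Leaving out 1 array took it as low as 47 (without TSC22D4 replicate 10), and it was 53 without LCN13 replicate 5, 54 without TSC22D4 replicate 11 and 60 without the combined replicate 13. Oas2 (1.57, adjusted p = 0.018) no longer passed without TSC22D4 replicate 10, TSC22D4 replicate 11 or the combined replicate 13 (adjusted p up to 0.0584). With the averaged pair Oas2 was at 1.63 (adjusted p = 0.0457). For Oas1g and Ifi213, levels near the lower end of the arrays leave the size of the difference uncertain. The amount of control virus also differed between the groups, and its part in the difference cannot be told apart from that of the shRNAs.

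**Figure D3:**
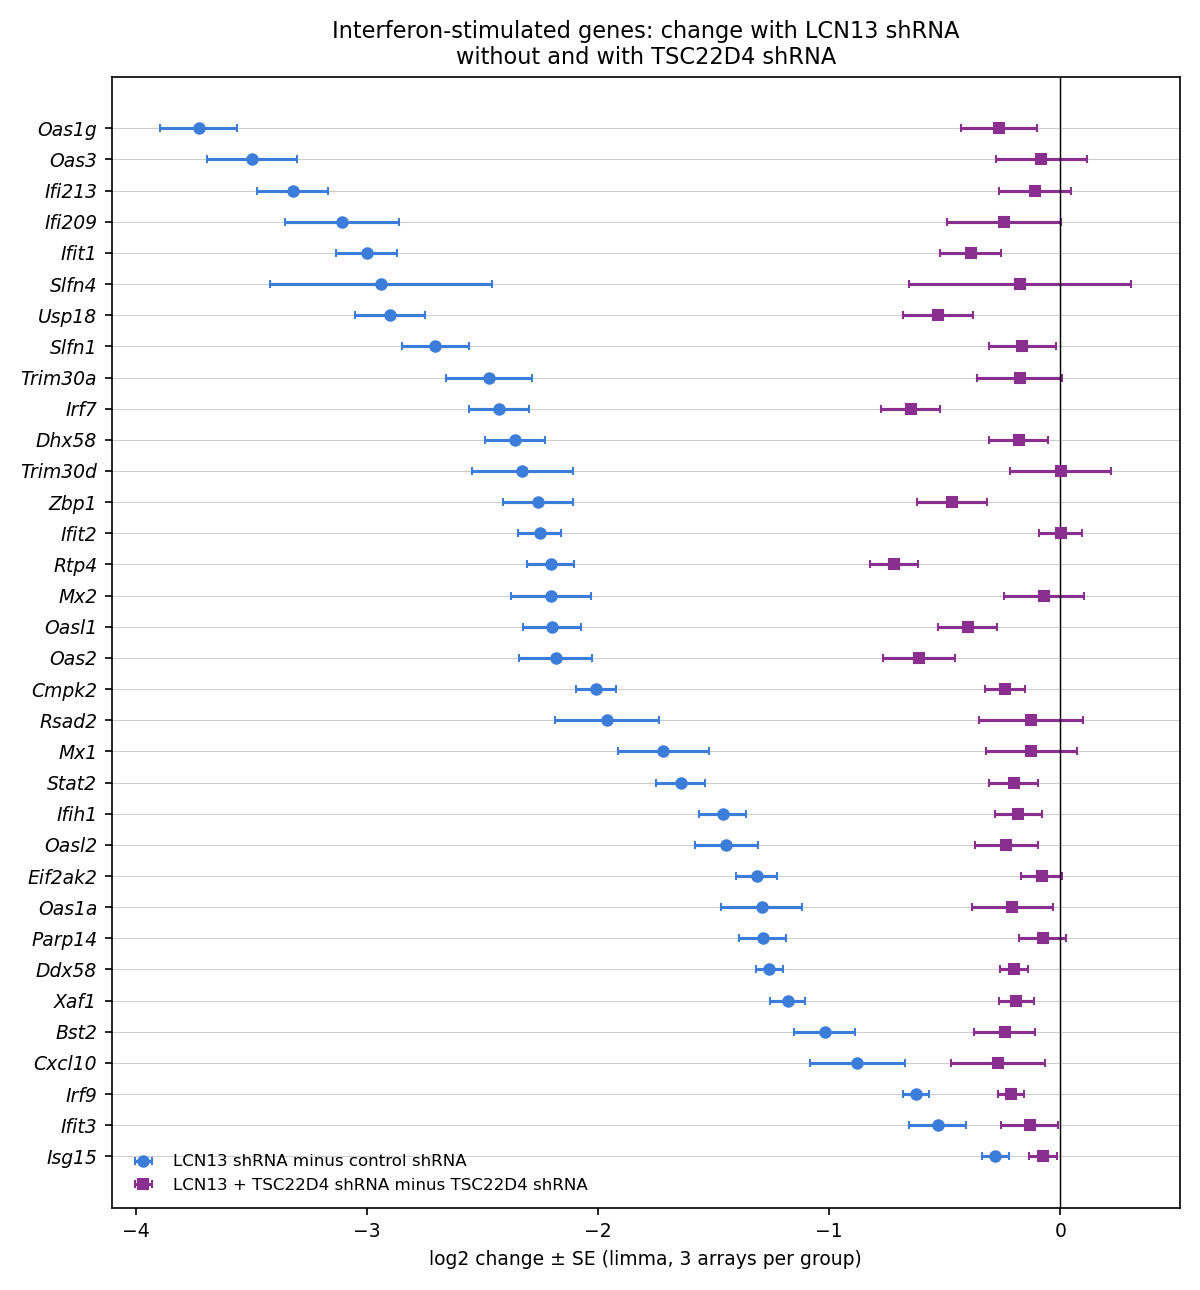
Log2 change with its standard error (horizontal axis) for the 34 measured interferon-stimulated genes, sorted by the change in LCN13 shRNA against control (blue circles), with the change in the combined group against the TSC22D4 group (purple squares). The blue points have a median of -2.19 and the purple ones of -0.196, and the 2 comparisons use different arrays.

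Promoters of this list were searched for GAAANNGAA, the core letters of the interferon response element, which is bound by factors of the IRF family. The windows were those of RefSeq on GRCm38.p6, from 250 bases before to 50 after each start, and both strands were read. It occurred in 17 of 29 windows of the list (58.6%), which belong to 26 genes, and in 8.56% of all 32851 windows of the table. Of the 4 members with the smallest p in the test of the difference that the table held, Oas1g and Ifi213 had matches and are shown to let the element be seen in place, with the matching letters in capitals. Ifit2 and Cmpk2 had no match in their windows. The Oas1g window (chr5:120887564-120887863, minus strand) holds 2 overlapping matches 18 and 12 bases before the start, and the Ifi213 window (chr1:173599223-173599522, minus strand) holds 1 at 73 bases before it. A match is a run of letters, and binding was not measured.
Oas1g: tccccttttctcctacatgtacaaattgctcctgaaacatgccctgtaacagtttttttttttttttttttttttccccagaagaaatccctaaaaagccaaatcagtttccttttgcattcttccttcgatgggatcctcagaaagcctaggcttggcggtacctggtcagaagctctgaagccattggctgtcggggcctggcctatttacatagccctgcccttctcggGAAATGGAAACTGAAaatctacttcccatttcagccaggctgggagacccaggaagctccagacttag
Ifi213: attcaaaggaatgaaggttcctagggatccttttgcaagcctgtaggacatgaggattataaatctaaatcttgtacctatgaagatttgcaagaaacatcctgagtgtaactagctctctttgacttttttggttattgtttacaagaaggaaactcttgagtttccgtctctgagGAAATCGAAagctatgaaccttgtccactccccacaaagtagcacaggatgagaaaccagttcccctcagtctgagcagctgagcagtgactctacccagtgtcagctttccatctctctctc

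Among the metabolic readouts, Angptl8 and Pck1 had the greatest differences, and none passed. Angptl8, a hormone gene that fat and liver switch on after feeding and that restrains lipoprotein lipase in other tissues, stood at 10.69, 10.94 and 10.55 with TSC22D4 shRNA and at 9.69, 9.10 and 9.93 with both. All 3 combined arrays lay below the TSC22D4 arrays, and the change was -1.15 (SE 0.264, adjusted p = 0.4495), or -1.33 to -0.92 with 1 array left out. The control and LCN13 means were 9.03 and 9.40, and the TSC22D4 group was above control (adjusted p = 0.0155). Both comparisons use the same TSC22D4 arrays, so they are not independent. The LCN13 effect with TSC22D4 shRNA minus that without was -1.52 and did not pass (adjusted p = 0.243).

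Pdk4 had higher levels in the combined group in every array, without passing. It codes for a kinase that blocks pyruvate dehydrogenase and so spares glucose in fasting. Its levels were 10.61, 10.52 and 10.54 with TSC22D4 shRNA and 11.38, 11.35 and 10.95 with both, without overlap, a change of 0.67 (SE 0.139, adjusted p = 0.366). In control arrays it stood at 11.57, 11.19 and 11.38 and in LCN13 arrays at 10.77, 10.63 and 10.39. The LCN13 effect was -0.78 without TSC22D4 shRNA (adjusted p = 0.0269) and 0.67 with it, and the difference of 1.45 passed (adjusted p = 0.0148). It no longer passed without TSC22D4 replicate 10, TSC22D4 replicate 11 or the combined replicate 14, where the adjusted p reached at most 0.0535. With LCN13 replicates 5 and 6 averaged, the LCN13 effect without TSC22D4 shRNA was -0.83 and no longer passed (adjusted p = 0.0632), while the difference was 1.51 and passed (adjusted p = 0.033).

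Pck1, whose enzyme makes glycerol for triglycerides in fat, stood at 10.91, 11.38 and 10.84 against 12.21, 12.25 and 11.23. The combined replicate 16 lay inside the range of the TSC22D4 arrays, and the change was 0.86 (SE 0.284, adjusted p = 0.619). The insulin receptor substrate gene Irs2, which insulin itself represses, stood at 8.76, 9.21 and 8.97 against 9.67, 10.06 and 9.16, a change of 0.65 (SE 0.244, adjusted p = 0.671), again with replicate 16 inside the range of the other group. Smaller values were those of Irs1 (0.18), the insulin-responsive glucose transporter gene Slc2a4 (-0.07) and the lipase gene Pnpla2 (0.0085), with adjusted p-values from 0.875 to 0.983. In the insulin signalling and glucose uptake list, 10 of 20 members lay on each side of 0, while 53.8% of all genes were above 0. The regulatory kinase subunit gene Pik3r1 (-0.18, adjusted p = 0.624) and the receptor gene Igf1r (0.24, adjusted p = 0.774) had groups that did not overlap.

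**Figure D4:**
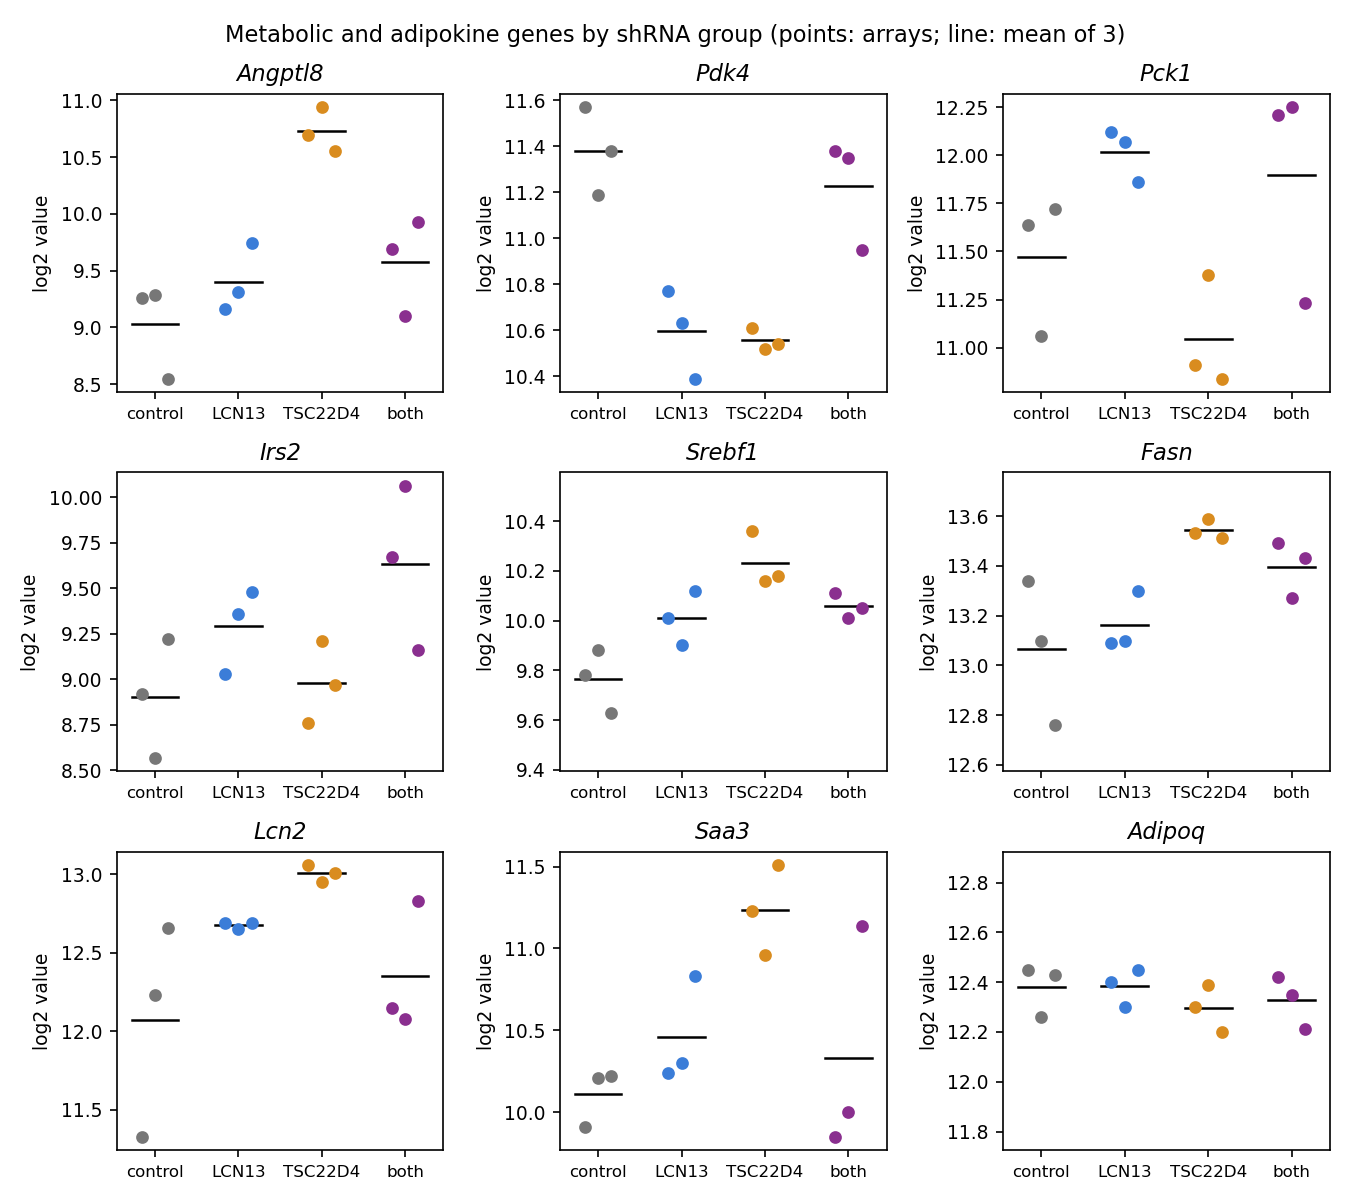
Log2 level (vertical axis) of 9 metabolic and secreted-protein genes in the 12 arrays by shRNA group (horizontal axis, "both" being LCN13 + TSC22D4 shRNA), with points for arrays and a line for the mean of 3. Angptl8, Pdk4, Srebf1, Fasn and Lcn2 separate the TSC22D4 arrays from the combined arrays. For Pck1, Irs2 and Saa3 the combined replicate 16 lies among the TSC22D4 arrays.

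Lipid synthesis genes were mostly slightly lower in the combined group, with none passing. Of 20 genes of de novo lipogenesis, 16 had a change below 0 (46.1% of all genes), 8 were lower without overlap (6.76%) and 1 at an unadjusted p under 0.05 (3.34%), with a median of -0.141. That 1 gene was Srebf1, the transcription factor through which insulin drives lipogenesis, at 10.36, 10.16 and 10.18 against 10.11, 10.01 and 10.05. Its groups did not overlap and its change was -0.18 (SE 0.0784, adjusted p = 0.707). TSC22D4 shRNA against control, which uses the same TSC22D4 arrays and is not independent, was higher (adjusted p = 0.022). Acaca, whose product commits acetyl-CoA to fatty acid synthesis, had a change of -0.25, fatty acid synthase (Fasn) one of -0.15, the elongase gene Elovl6 one of -0.24 and the desaturase gene Scd1 one of -0.0046. In triglyceride synthesis and storage, 12 of 17 members were below 0 (46.1% of all genes), with a median of -0.0417. Among them were Gpam (-0.22), the first acyltransferase, and Gpd1 (-0.16, no overlap). Lipolysis genes (9 of 11 above 0, median 0.0326) and fatty acid oxidation genes (9 of 16 above 0, median 0.0158) had 0 members beyond a change of 0.2 other than Pdk4. Of all genes, 53.8% were above 0.

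Of 18 genes of cholesterol synthesis and uptake, 16 were below 0 (46.1% of all genes), with a median of -0.174. Only 1 was lower at an unadjusted p under 0.05 (3.34% of all genes), and none passed. The list mean was 0.17, 0.17 and 0.16 in the TSC22D4 arrays and 0.02, -0.13 and 0.17 in the combined arrays, so replicate 16 was level with the TSC22D4 arrays. Dhcr7, the last enzyme of the pathway, stood at 10.21, 10.19 and 10.48 against 9.78, 9.65 and 10.30 (change -0.38, SE 0.182, adjusted p = 0.739). Msmo1 (-0.27), Lss (-0.27) and the sterol sensor gene Insig1 (-0.21) also had values below the TSC22D4 group in replicates 13 and 14. Leaving out single arrays kept the list median between -0.241 and -0.0848.

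Of 24 chemokine and cytokine genes, 18 were below 0 (46.1% of all genes), with a median of -0.0588. Of these, 5 were lower without overlap (6.76% of all genes), 4 were lower at an unadjusted p under 0.05 (3.34%) and none passed. Ccl8, a chemokine gene for monocytes, stood at 10.13, 10.01 and 10.57 against 9.28, 9.94 and 9.70 (change -0.60, SE 0.183, adjusted p = 0.574), and Ccl7, a related chemokine gene, at 11.26, 11.01 and 10.86 against 10.34, 10.32 and 10.81 (-0.55, SE 0.172). Their groups did not overlap. Ccl2, the main monocyte attractant of obese fat, stood at 11.75, 11.60 and 11.64 against 11.03, 10.85 and 11.70 (-0.47, SE 0.199, adjusted p = 0.701), with replicate 16 among the TSC22D4 arrays. Of 13 acute phase genes, 8 were below 0 (46.1% of all genes), 2 were lower without overlap (6.76%), 3 were lower at an unadjusted p under 0.05 (3.34%) and none passed, with a median of -0.0299. Saa3, the serum amyloid gene of fat, stood at 11.23, 10.96 and 11.51 against 9.85, 10.00 and 11.14 (-0.91, SE 0.319, adjusted p = 0.643), with replicate 16 among the TSC22D4 arrays. Lcn2, a lipocalin that binds bacterial iron carriers, stood at 13.06, 12.95 and 13.01 against 12.15, 12.08 and 12.83 (-0.65, SE 0.301, adjusted p = 0.727), without overlap, and Serpina3n had a change of -0.21 (adjusted p = 0.594). Tnf had a change of -0.11 and the macrophage marker Adgre1 one of -0.01, with adjusted p-values of 0.82 and 0.986.

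Immunoglobulin genes, expressed by B and plasma cells, were mostly lower in the combined group but differed between arrays of 1 group as well. They were grouped as a family after their values were seen, so the shares below are description only. Of 194 such genes, 161 were below 0 (46.1% of all genes) and 31 were lower at an unadjusted p under 0.05 (3.34%). Without overlap, 30 were lower (6.76%), and 0 passed, with a median of -0.204. Averaged over these genes, the deviation from the 12-array mean was 0.70, -0.03 and 0.55 in the TSC22D4 arrays and 0.07, -0.24 and 0.12 in the combined arrays. Control and LCN13 arrays lay between -0.30 and -0.12. Ighv10-1 showed the greatest difference, 8.94, 8.39 and 10.17 against 6.19, 5.84 and 7.50, a change of -2.65 (SE 0.561, adjusted p = 0.4). The constant region gene Ighg2b stood at 12.30, 9.88 and 12.24 against 9.69, 9.51 and 10.72 (-1.50, SE 0.733), and Igha, the heavy chain of IgA, at 11.94, 10.53 and 11.98 against 10.17, 10.55 and 10.59 (-1.05, SE 0.467). Jchain, which joins IgA and IgM subunits, stood at 8.95, 6.87 and 8.62 against 7.81, 6.89 and 7.15 (-0.86, SE 0.468). In Ighg2b and Igha, TSC22D4 replicate 11 lay within the range of the combined arrays, and in Jchain just below it. Without that array the median over the family was -0.394, while without TSC22D4 replicate 10 it was -0.0592. Of 15 B and plasma cell markers, 13 were below 0 (46.1% of all genes). Their array means ran from -0.06 to 0.26 in the TSC22D4 group and from -0.07 to 0.02 in the combined group. The B cell marker Ms4a1 lay near the lower end of the scale in all 6 arrays (5.89 to 6.25). Immunoglobulin variable genes are alike in sequence and may share probe signal, so single members are uncertain, and in tissue RNA fewer cells of a type cannot be told apart from less RNA per cell.

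None of the macrophage, T and NK cell, neutrophil and mesothelial markers passed. Of 26 macrophage markers 22 were below 0 (median -0.0413) and of 21 T and NK cell markers 16 (median -0.0648). Of 14 neutrophil markers 9 were below 0 (median -0.0251). Of all genes, 46.1% were below 0. The T cell receptor chain gene Trac had a change of -0.47 (adjusted p = 0.707) and the neutrophil gene S100a8 one of -0.71 (adjusted p = 0.787), the latter at 8.13, 8.28 and 9.42 against 7.47, 7.47 and 8.75. Of 17 mesothelial markers 15 were above 0 (53.8% of all genes), with a median of 0.103 and none at an unadjusted p under 0.05. The part of cell makeup in the inflammatory differences was not tested.

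None of the red blood cell genes passed. All 9 measured members had a change above 0 (53.8% of all genes), 3 were higher at an unadjusted p under 0.05 (3.57%) and 5 were higher without overlap (7.76%), with a median of 0.0957. The list mean was 0.21, -0.06 and -0.08 in the TSC22D4 arrays and 0.59, 0.36 and 0.44 in the combined arrays, while control arrays ran from -0.61 to 0.15 and LCN13 arrays from -0.49 to 0.26. Hbb-b1 stood at 9.66, 8.92 and 8.96 against 10.76, 10.09 and 10.62 (1.31, SE 0.837, adjusted p = 0.812). Slc4a1, the anion exchanger of the red cell membrane, stood at 7.34, 6.86 and 6.66 against 7.99, 8.00 and 7.81 (0.98, SE 0.296, adjusted p = 0.567). Its groups did not overlap. Alas2, the first enzyme of heme synthesis in red cells, had a change of 0.73, and Bpgm one of 0.70.

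**Figure D5:**
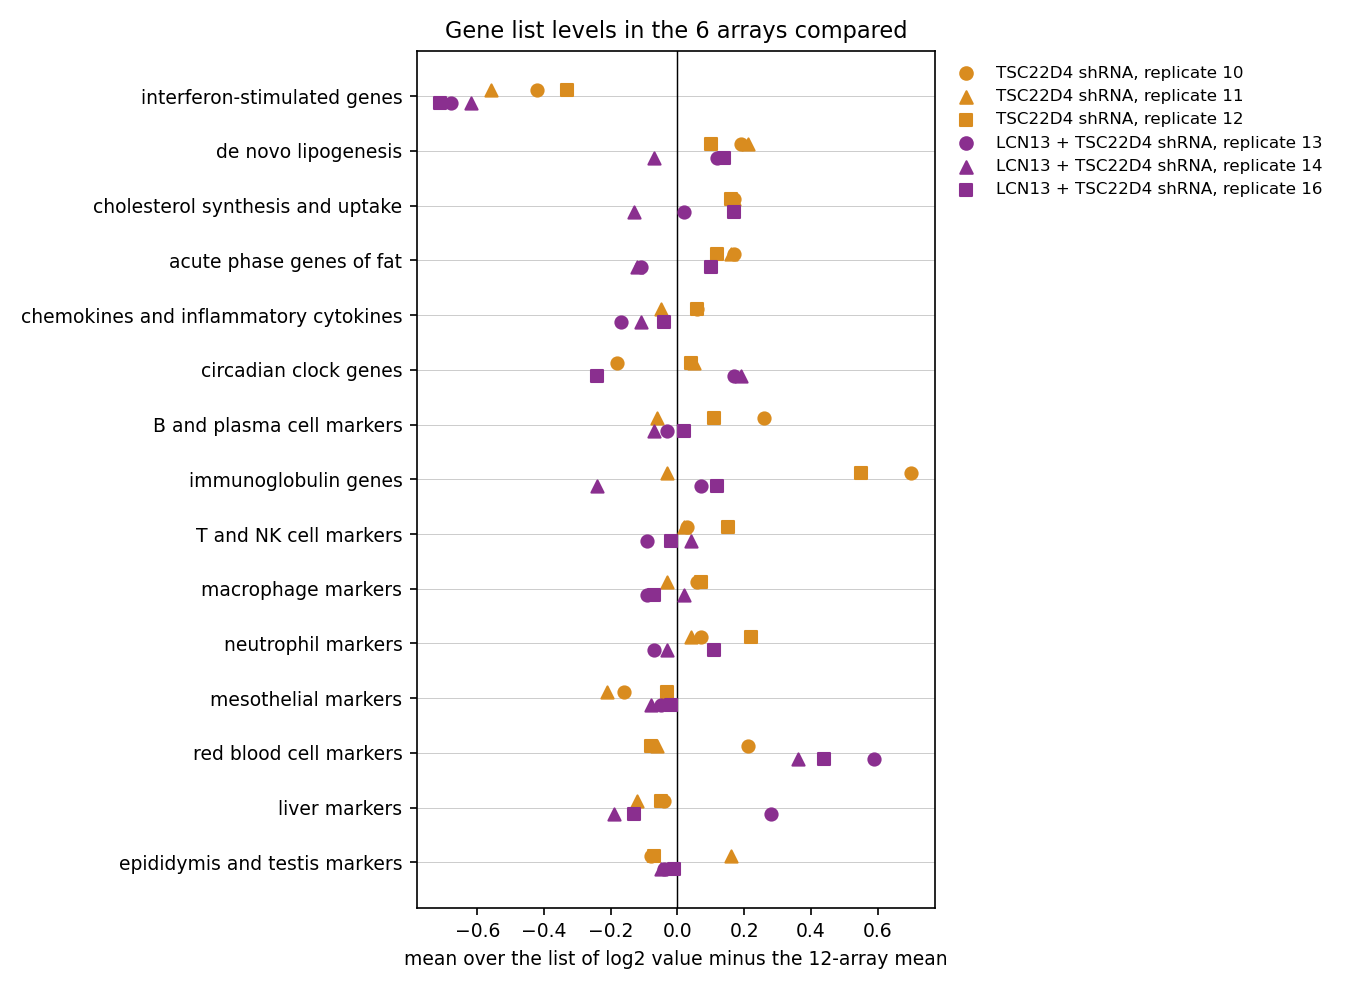
Mean over each gene list of the log2 level minus the 12-array mean (horizontal axis) in the 6 arrays compared, with 1 row per list, colour for the group and marker shape for the replicate. The groups separate for the interferon and red blood cell lists and, narrowly, for the acute phase list (lowest TSC22D4 array 0.12, highest combined array 0.10). Replicate 16 of the combined group lies with the TSC22D4 arrays for cholesterol synthesis, and TSC22D4 replicate 11 lies apart for immunoglobulin genes.

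Clock genes varied within both groups. Dbp, an output gene of the circadian clock with a strong daily rhythm, stood at 8.21, 9.29 and 9.36 with TSC22D4 shRNA and at 10.06, 9.79 and 8.09 with both (0.36, SE 0.594, adjusted p = 0.948). The list mean was low in TSC22D4 replicate 10 (-0.18) and in the combined replicate 16 (-0.24), and between 0.04 and 0.19 in the other 4 arrays. Nfil3, which opposes Dbp at the same DNA sites, stood at 7.90, 7.78 and 7.98 against 6.94, 7.29 and 7.73 (-0.57, SE 0.19, adjusted p = 0.622), without overlap. The labels give no hour of killing, and the part of the hour in Pck1, Irs2, Ccl2 and Saa3, for which replicate 16 also stood apart from replicates 13 and 14, was not tested.

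None of the unfolded protein response or heat shock genes passed. Dnajb9, a cochaperone gene of the unfolded protein response, stood at 11.01, 11.09 and 11.10 against 11.23, 11.29 and 11.22, a change of 0.18 (SE 0.0352, adjusted p = 0.366), with every combined array above every other array of the series. Of 21 genes of that list 11 were above 0 (53.8% of all genes), with a median of 0.00651. Hspa1a, an inducible heat shock protein gene, stood at 7.01, 6.96 and 7.26 against 7.85, 7.86 and 7.05 (0.51, SE 0.19, adjusted p = 0.671). The heat shock list had 11 of 16 members above 0 (53.8% of all genes), with a median of 0.0413. Of 24 cell cycle genes 22 were below 0 (46.1% of all genes), with a median of -0.0859. The largest change was that of Plk1, at 7.64, 7.55 and 7.88 against 7.16, 7.26 and 7.67. Of 25 oxidative phosphorylation genes 21 were below 0 (46.1% of all genes), with a median of -0.0228. Among brown fat genes, Cox8b had a change of -0.55 (adjusted p = 0.739) and Ucp1 one of 0.04 (adjusted p = 0.94), the latter with all 6 arrays between 6.06 and 6.29.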

How the data were processed

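RNA of abdominal fat from 12 mice was labelled with biotin and hybridised to Affymetrix arrays, per the labels' protocols. The authors deposited log2 values made with RMA, per the submitters' processing notes. For the RMA settings, the probe set definitions and the build nothing is stated in the sources used here. RMA brings arrays to 1 distribution (sorted columns differed by at most 0.00188), which removes shifts shared by most genes. The number of arrays limits the precision.

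Of 25206 probe sets, 23185 had 1 gene symbol, 0 had several and 2021 had none. All 23185 gene IDs matched a RefSeq gene table, used for names alone. Tests used limma 3.58.1 in R 4.3.3 over 12 arrays with 1 mean per group (8 residual and 1.38 prior degrees of freedom), two-sided, with Benjamini-Hochberg adjustment over all named genes and calls at an adjusted p under 0.05. Labels give separate animals and no covariate, but whether the close LCN13 replicates 5 and 6 share RNA or an animal is not known, and no filter was applied to dim probe sets.

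Members of 40 gene lists (688 of 752 genes measured) are described by counts and medians. The members and lists were chosen with earlier results of these data known. Genes are named by 4 rules: 12 per direction with the smallest unadjusted p and no overlap, since none passed, leaving out predicted, RNA and chemosensory receptor genes; the shRNA targets; fixed readouts; and up to 4 members per described list with the largest change. Oas1g, Ifit2, Ifi213, Cmpk2, Ly6g5b, Svs5, Gpx5, Defb20, Slc27a1, Apol11b, Adamts1, Ube2q2 and the other immunoglobulin genes were named after their values were seen. Alternatives were the 6 arrays alone, array weights, a trended robust prior, a dim filter, all probe sets, median centring and leaving out arrays.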

Additional observations from a re-analysis of the deposited data

Results flagged for a closer look

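The change with LCN13 virus in the place of control virus differed with and without TSC22D4 shRNA. The difference passed limma for 92 genes at an adjusted p under 0.05. Control virus fell from 4e9 to 2e9 without TSC22D4 shRNA and from 2e9 to 0 with it. An uneven response to control virus therefore cannot be told apart from a joint effect of the shRNAs. The interferon list mean was high in the control arrays alone (1.41 to 1.82, against -0.71 to -0.33 in the other groups). Among the interferon-stimulated genes named, the effect with TSC22D4 shRNA minus that without was 3.46 for Oas1g, 3.21 for Ifi213, 2.37 for Usp18, 2.25 for Ifit2, 1.78 for Irf7, 1.77 for Cmpk2, 1.57 for Oas2 and 1.48 for Rtp4, each on the log2 scale. In these 8 genes the LCN13 effect was between -3.73 and -2.01 without TSC22D4 shRNA and between -0.72 and 0.00098 with it. Oas1g and Ifi213 lay near the lower end of the arrays in all shRNA groups, where a further fall could not be seen. For Pdk4 the difference was 1.45, with effects of opposite sign. For Rab11b it was -0.47, from effects of 0.18 without and -0.28 with TSC22D4 shRNA, and it no longer passed without LCN13 replicate 5, TSC22D4 replicate 10 or the combined replicates 13 or 14 (adjusted p up to 0.0526). For the fatty acid transporter gene Slc27a1 it was 0.36, and it no longer passed in 11 of the 12 fits that left out 1 array (adjusted p up to 0.106), nor with LCN13 replicates 5 and 6 averaged (0.37, adjusted p = 0.0905).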

How the results depend on the processing

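No paired analysis was possible because the groups compared share no replicate numbers. The count of genes passing was 0 with the 6 arrays alone (smallest adjusted p 0.297), array weights (0.175), a trended robust prior (0.16), dim probe sets left out (0.116), all probe sets (0.234) and median centring (0.374). With LCN13 replicates 5 and 6 averaged, chosen after seeing the data, the count was also 0 (smallest adjusted p 0.411). It ran from 0 to 4 when 1 array was left out (1 without TSC22D4 replicate 11, 4 without the combined replicate 16). Without both of those arrays, an alternative chosen after seeing the data, 2 genes passed, Igkv5-43 (-1.81, adjusted p = 0.0335) and Iglv3 (-1.40, adjusted p = 0.0385). The count at an unadjusted p under 0.05 was 862 of 11592 genes with dim probe sets left out, where fewer genes were tested. The count for the difference of the LCN13 effects ran from 47 to 104 when 1 array was left out and was 60 without both arrays, 130 with array weights, 105 with a trended robust prior and 70 with LCN13 replicates 5 and 6 averaged. Of the 92 genes, 46 were shared without TSC22D4 replicate 10, 51 without LCN13 replicate 5 and 69 with the averaged pair. Of 147 named genes, 22 turned sign in some alternative, none of them passing. With array weights, Scd1 became 0.0023 and Fabp4 0.00011. When 1 array was left out, the changes ran from -0.0801 to 0.0352 for Adgre1, -0.80 to 0.12 for Cxcl13, -0.0173 to 0.97 for Dbp, -0.23 to 0.10 for Slc2a4, -0.0286 to 0.0241 for Scd1, -0.0195 to 0.0059 for Fabp4, -0.16 to 0.0482 for Tsc22d3, -2.07 to 0.38 for Lcn8, -1.87 to 0.20 for Lcn9, -0.0016 to 0.27 for Pi16, -0.057 to 0.46 for Gpm6a, -1.10 to 0.21 for Adam7, -0.0212 to 0.0856 for Adipoq, -0.0208 to 0.0339 for Pnpla2, -0.0221 to 0.0765 for Plin1, -0.071 to 0.0228 for Tsc22d1, -0.00065 to 0.0299 for Lep, -0.72 to 0.86 for Alb, -0.099 to 0.62 for Apoc3, -0.0203 to 0.0881 for Ucp1 and -0.44 to 0.10 for Per1. Without both arrays the values were 0.0303 for Pparg, 0.21 for Slc2a4, 0.0273 for Scd1, 0.0107 for Fabp4, 0.23 for Per1, 0.13 for Tsc22d3, 0.35 for Lcn8, 0.19 for Lcn9, -0.0518 for Pi16, -0.0898 for Gpm6a and 0.25 for Adam7. The cause was not tested. Genes near the lower end of the scale, Obp2a among them, allow no statement on small changes.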
